A study of Mus musculus with 4 samples.

Results

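Serpins are a large family of protease inhibitors, and the 67 mouse genes described here are the rows of a gene expression table whose symbol consists of Serpin, a clade letter from a to i and a number. They are 67 of the 38713 genes with values. Clades A and B hold 28 rows each, and the other 11 rows fall in clades C to I. All 67 had a position in the GENCODE M21 annotation of GRCm38 (mm10), where 60 are protein-coding and 7 are annotated as pseudogenes of one kind or another.

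Messenger RNA was sequenced from 4 mouse mammary tumor cell lines on the C57BL/6 strain, with 1 library per line. The JNK_WT lines (replicates 1 and 2, genotype p53-/-) came from Wap-Cre mice with Trp53 LoxP/LoxP alleles. The JNK_KO lines (replicates 1 and 3, genotype p53-/- JNK-/-) came from Wap-Cre mice that carried LoxP/LoxP alleles of Trp53, of Mapk8 (encoding JNK1) and of Mapk9 (encoding JNK2). Every line therefore lacked p53 by design, and the comparison asks what differed when both JNK kinases were also deleted. Wap-Cre is driven by a milk protein promoter that is active in luminal mammary epithelium, and the methods place tumor formation in parous females. Tumor tissue was digested and the cells were plated on collagen I and passaged in culture, so each line is an adapted culture of 1 tumor. An animal was not named for any line, so all errors given here measure the spread between lines of a genotype.

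A serpin inhibitor presents an exposed reactive centre loop as bait. When a protease cuts the loop, the serpin refolds and traps the enzyme in a covalent complex, which is why the few residues of this loop decide which protease is inhibited. Clade A serpins are mostly secreted plasma proteins made in liver, such as antitrypsin. Clade B serpins lack a classical signal peptide and work largely inside cells, against granzymes, cathepsins and other proteases. In mammary tumors the family is best known through its restraint of plasminogen activation and through maspin (Serpinb5). Some members inhibit nothing, among them the collagen chaperone Serpinh1 and the hormone carriers Serpina6 and Serpina7.

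Values are FPKM, that is, fragments scaled by transcript length and by the mapped total of the library. Levels were compared between genes and between libraries on this scale. Its sum over all genes still ran from 775960 in JNK_WT replicate 1 to 921595 in JNK_KO replicate 1. Within each gene the libraries are always given in the order JNK_WT replicate 1, JNK_WT replicate 2, JNK_KO replicate 1, JNK_KO replicate 3. A gene was tested if it reached 1 FPKM in at least 2 libraries. Its difference is the JNK_KO mean minus the JNK_WT mean of log2(FPKM + 1), a scale that understates the change of genes with low values. Calls required an adjusted p under 0.05 together with a difference over 0.75 in either direction. Of 12998 genes tested, 0 (0.0%) were called, although 992 (7.63%) had an unadjusted p under 0.05 by limma, among them 2 of the 11 tested serpins, Serpina3g and Serpinb6b. No serpin passed the test, and the differences given in what follows are measured values with their standard errors (SE, 2 lines against 2).

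The deleted genes followed the labels in direction. Mapk8 was at 23.9, 19.1, 4.30 and 4.27 FPKM and Mapk9 at 29.7, 24.3, 12.6 and 8.66 FPKM. Trp53, floxed in every line, was at 1.55, 4.15, 5.72 and 4.28 FPKM. Luminal markers were present in every line, with Krt8 at 278 FPKM or more and Epcam at 150.3 FPKM or more. Of the 7 luminal markers, all tested, 3 were lower in JNK_KO by over 0.75 and 0 higher, beside 6.43% and 9.25% of all tested genes. Their median log2 difference was -0.52. Basal markers differed between lines regardless of genotype (Krt14 at 7.34, 443, 26.7 and 313 FPKM). Endothelial and hepatocyte markers were near 0, with sums of no more than 0.519 and 0.397 FPKM and Alb listed at 0 in all 4 libraries. The leukocyte list summed to 22.0, 3.67, 3.63 and 9.79 FPKM. Most of that was Cd68 (20.0, 3.15, 2.65 and 8.43 FPKM), Csf1r reached 1.82 FPKM, and the defining Ptprc was at 0.0134 FPKM or less. Read totals were not used here, but the step between low values gave relative depths of 1.03, 1.22, 1 and 1.35, so depth differed by no more than 1.35-fold.

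Much of the family consists of young gene copies that lie side by side and share sequence, and this limits what short reads can separate. A block of 27 clade A genes spans chr12:103614786-104414329, 16 clade B genes span chr13:32842092-34002794, and 12 further clade B genes span chr1:106861173-107610484. The 5 Serpina1 genes of the first block encode mouse antitrypsins, and their coding sequences were 96.3% to 98.5% identical over 1239 aligned bases. Within them the stretch of 60 bases with the most differences lies in the last coding exon, in the part that encodes the reactive centre loop. It is shown for each copy because the copies differ in the bait they present and because a read of 40 bases can be assigned to 1 copy only where such letters occur. Capitals mark the 18 positions at which the copies differ. The sequences are from GENCODE M21, all on the minus strand of chromosome 12, at chr12:103853757-103853816 (Serpina1a), chr12:103728324-103728383 (Serpina1b), chr12:103895094-103895153 (Serpina1c), chr12:103763762-103763821 (Serpina1d) and chr12:103947100-103947159 (Serpina1e).
Serpina1a: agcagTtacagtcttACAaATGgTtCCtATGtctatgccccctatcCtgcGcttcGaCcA
Serpina1b: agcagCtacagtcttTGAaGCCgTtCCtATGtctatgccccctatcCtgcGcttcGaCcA
Serpina1c: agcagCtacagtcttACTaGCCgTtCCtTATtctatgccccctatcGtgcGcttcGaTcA
Serpina1d: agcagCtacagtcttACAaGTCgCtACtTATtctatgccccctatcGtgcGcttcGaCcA
Serpina1e: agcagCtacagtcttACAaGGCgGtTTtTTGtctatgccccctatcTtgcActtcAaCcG

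The Serpina3 genes at the other end of the same block, the mouse relatives of antichymotrypsin, are further apart. Serpina3g and Serpina3n were 84.3% identical over 648 aligned coding bases, and Serpina3g and Serpina3f 87.0% identical over 744. Their most variable stretch of 60 bases, again in the last coding exon, differs at 23 positions (capitals). It is shown because Serpina3g and Serpina3n were the copies with appreciable FPKM, while the close copy Serpina3f stayed near 0. The positions are chr12:104220296-104220355 (Serpina3f), chr12:104241120-104241179 (Serpina3g) and chr12:104413496-104413555 (Serpina3n), on the plus strand, from GENCODE M21.
Serpina3f: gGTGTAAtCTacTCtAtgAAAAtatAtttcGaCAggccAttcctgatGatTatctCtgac
Serpina3g: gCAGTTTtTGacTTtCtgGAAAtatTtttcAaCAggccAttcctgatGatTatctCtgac
Serpina3n: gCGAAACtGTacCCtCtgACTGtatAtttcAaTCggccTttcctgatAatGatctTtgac

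As a measure of what 40-base reads can resolve, the distinct 40-base stretches of every annotated transcript were compared across the family. In the Serpina1 genes, 35.4% (Serpina1b) to 77.8% (Serpina1c) of these stretches also occurred in another serpin. The share was 21.4% in Serpina3g, 13.1% in Serpina3n, 61.1% in Serpinb9f and 53.3% in Serpinb9g. No stretch was shared for Serpine2, Serpinf1, Serping1, Serpinh1, Serpinb5, Serpina9 or Serpina12. How reads that matched several copies were divided was done by the authors' estimation, so values of single Serpina1, Serpina3 and Serpinb9 copies are less certain than those of the unique genes. Strand use was not stated either. Serpina1b and Serpina1d, Serpina3k and Serpina3m, and Serpinb2 and Serpinb10 overlap on the genome. Each pair lies on the same strand, so strand would not separate their reads.

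Expression of the family was concentrated in few genes. Of the 67, 12 were listed at 0 in all libraries, 31 stayed under 0.5 FPKM, 13 reached 0.5 FPKM without meeting the filter, and 11 were tested. The sum over the family was 564, 419, 453 and 514 FPKM. Clade B made up 68.8%, 51.2%, 45.1% and 59.1% of it, and the single clade H gene Serpinh1 22.8%, 12.7%, 36.3% and 26.4%. Clade A contributed 0.0316% and 0.172% in the JNK_WT lines against 6.41% and 5.70% in the JNK_KO lines. Clade A was thus nearly silent in the JNK_WT lines despite its many genes, and Serpinb6a and Serpinh1 together made up most of the sum in every line.

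**Figure D1:**
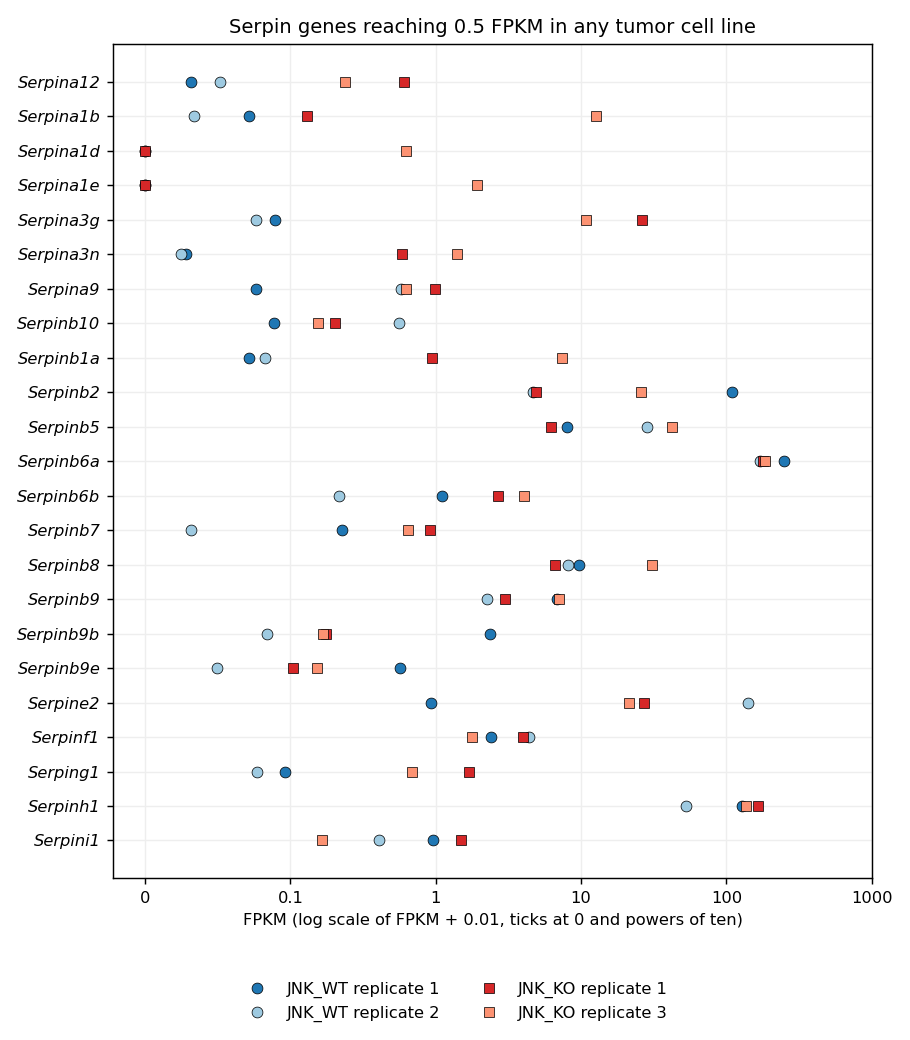
FPKM of 23 serpin genes that reached 0.5 FPKM in at least 1 library, on a log axis of FPKM + 0.01, with 1 point per library (circles JNK_WT, squares JNK_KO; libraries listed at 0 lie over each other). Serpinb6a sits between 169.8 and 249.8 FPKM in all 4 lines, whereas Serpine2 runs from 0.911 to 140.2 FPKM between the JNK_WT lines.

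Clade A was higher in both JNK_KO lines for most of its detected genes. Of its 28 rows, 22 were above 0 in some library, and in 14 of these both JNK_KO lines were above both JNK_WT lines. The reverse order occurred in 0 of them and the groups overlapped in 8. Among the 25135 genes above 0 in any library, 18.4% had both JNK_KO lines on top and 13.9% both below. The highest value of every detected clade A gene was in a JNK_KO line (10 in replicate 1 and 12 in replicate 3). Of the 28 rows, 5, 8, 16 and 20 were above 0 in the respective libraries. Genes at 0 in both JNK_WT lines were detected only through a JNK_KO line. For these genes the highest value had to be in a JNK_KO line and the reverse order could not occur. Clade A FPKM summed to 0.178, 0.721, 29.0 and 29.3. Serpina3g was 26.1 FPKM of the sum in JNK_KO replicate 1. In JNK_KO replicate 3, Serpina1b was 12.6 and Serpina3g 10.8 FPKM of it. Most detected clade A genes were at a few reads. Since the deposited values come from cultured bulk cells, fewer cells that express a gene and less RNA per cell cannot be told apart.

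Serpina3g, which encodes an intracellular inhibitor of lysosomal cysteine cathepsins, had the highest FPKM of clade A in JNK_KO replicate 1, and was second to Serpina1b in JNK_KO replicate 3. Its FPKM were 0.0682, 0.0476, 26.1 and 10.8, or very roughly 5.8, 4.8, 2178 and 1221 reads. Both JNK_KO lines were thus far above both JNK_WT lines, which were close to 0. The log2 difference was 4.08 (SE 0.49), with an adjusted p of 0.175 in limma. It was the smallest adjusted p in the family, beside 0.0515 for the smallest among all genes. Serpina3g met the filter only through the JNK_KO lines.

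Serpina3n, a secreted antichymotrypsin and acute-phase protein, was at 0.00920, 0.00769, 0.577 and 1.40 FPKM, about 1 read in each JNK_WT library. As for Serpina3g, both JNK_KO lines were above both JNK_WT lines, but the level was far lower, replicate 3 was the higher JNK_KO line, and the gene was not tested. Serpina3f, Serpina3h and Serpina3i were also higher in both JNK_KO lines, but reached no more than 0.103, 0.203 and 0.0699 FPKM. Of the 40-base stretches of Serpina3g, 11.6% recur in Serpina3h, and the part of such shared reads in these low values was not tested.

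The antitrypsins were a feature of 1 line. Serpina1b was at 0.0418, 0.0117, 0.120 and 12.6 FPKM, Serpina1e at 0, 0, 0 and 1.91 FPKM, and Serpina1d at 0, 0, 0 and 0.613 FPKM. Serpina1a and Serpina1c were above 0 in the same JNK_KO replicate 3 only, at 0.109 and 0.0535 FPKM. In this line the hepatocyte marker Fgb was at 0.386 FPKM, against 0 in the other lines, but Alb was listed at 0 and Apoa1 at 0. The sum of the 4 hepatocyte markers was 0.0323, 0.0155, 0.0197 and 0.397 FPKM. JNK_KO replicate 1 was near the JNK_WT lines for all 5 genes, so the JNK_KO lines differed from each other more than JNK_KO replicate 1 did from the JNK_WT lines. The part of hepatocyte genes in these values was not tested.

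Serpina12, the adipokine vaspin, was at 0.0108, 0.0227, 0.594 and 0.226 FPKM. Serpina9, described in germinal centre B cells, was at 0.0481, 0.566, 0.984 and 0.618 FPKM. Both were higher in the JNK_KO lines, Serpina9 by little over JNK_WT replicate 2. Serpina10, an inhibitor of coagulation factor X with protein Z, reached 0.455 FPKM in JNK_KO replicate 3, and the steroid carrier Serpina6 was between 0.0682 and 0.0881 FPKM in the JNK_KO lines and at 0 in the JNK_WT lines. Among the 7 detected clade A genes that share under 1% of their 40-base stretches, 5 had both JNK_KO lines on top. The same order held in 10 of the 14 genes with about 5 reads or more, and in 18.4% of all detected genes. Those reads were taken from the library with the most, which for each of the 14 was a JNK_KO line. Leaving out JNK_KO replicate 3, 16 of 17 detected clade A genes were higher in the remaining JNK_KO line than in both JNK_WT lines, and 37.1% of all detected genes were. Genes at 0 in both JNK_WT lines were then detected only through that JNK_KO line, so their order was fixed in advance.

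**Figure D2:**
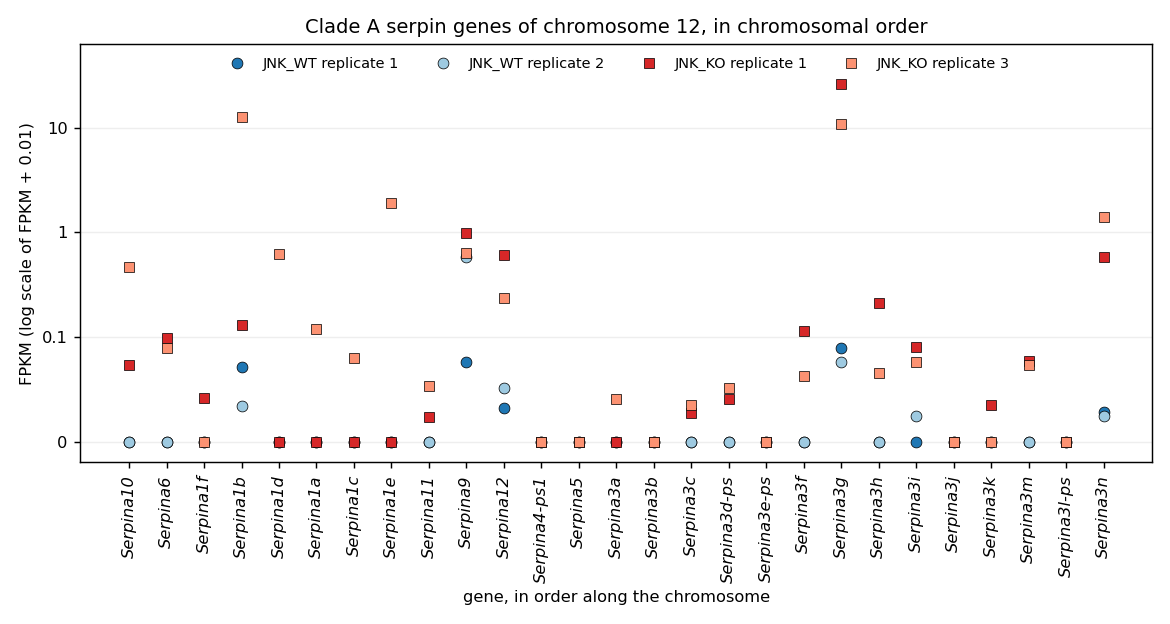
FPKM of the 27 clade A genes of chromosome 12 in chromosomal order, on a log axis of FPKM + 0.01, with 1 point per library. Serpina3g reaches 26.1 and 10.8 FPKM in the JNK_KO lines and stays under 0.07 in the JNK_WT lines, while Serpina1b, Serpina1d and Serpina1e exceed 0.5 FPKM in JNK_KO replicate 3 alone.

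Most other tested genes of the neighbourhood did not show this order. Of the clade A genes only Serpina3g was tested, so genes at unlike levels are set side by side here. The 14 other tested genes in or within 1 Mb of the chromosome 12 block had a median log2 difference of -0.23. Of these, 1 was higher and 6 lower in both JNK_KO lines, beside 18.3% and 16.7% of all tested genes. The 413 tested genes of chromosome 12 had a median of -0.41, against 0.01 over all tested genes.

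Promoter letters were compared for the Serpina3 copies because 3 of them share a match to the interferon-gamma activated sequence, the letters TTCNNNGAA that STAT factors bind. The match is present in a conserved stretch before the annotated starts of Serpina3f, Serpina3g and Serpina3i, shown here with the match in capitals (RefSeq, GRCm38.p6, plus strand). The stretches lie at chr12:104214397-104214455 (Serpina3f), chr12:104236088-104236146 (Serpina3g, where the match is 33 to 25 bases before the start) and chr12:104262994-104263052 (Serpina3i, 102 to 94 bases before the start).
Serpina3f: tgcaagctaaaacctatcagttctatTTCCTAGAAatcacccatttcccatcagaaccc
Serpina3g: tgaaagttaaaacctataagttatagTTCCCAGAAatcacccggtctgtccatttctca
Serpina3i: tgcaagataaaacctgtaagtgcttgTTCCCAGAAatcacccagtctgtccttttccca

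Serpina3g and Serpina3i hold the same 9 letters, and their highest FPKM were 26.1 and 0.0699. Of all 32851 promoters searched on both strands over the 250 bases before the start, 7.02% held this motif, and 10 of 63 serpin promoters did, from 8 genes. The letters TGANTCA, to which AP-1 factors such as the JNK substrate Jun bind, occurred in 6.75% of all promoters and in 12 of 63 serpin promoters. The 11 genes concerned were Serpina1a to Serpina1d, Serpinb2, Serpinb5, Serpinb7, Serpinb8, Serpinb10, Serpinb11 and Serpinb12, whose values did not share a direction. The 63 serpin promoters belonged to 54 genes, 52 of them among the 67 members.

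Clade B held 6 of the 11 tested serpins, and in 5 of these the groups overlapped. Of its 28 rows, 23 were above 0, with both JNK_KO lines on top in 7, below in 0 and overlapping in 16, beside 18.4% on top and 13.9% below over all detected genes. Serpinb6a, a cytosolic inhibitor of cathepsin G and related proteases, had the highest FPKM of any serpin in every library, at 249.8, 169.8, 178 and 185. The log2 difference was -0.18 (SE 0.28), with a 95% interval from -0.93 to 0.56. Serpinb6a was also the most even of the tested serpins, with a ratio of 1.47 between its highest and lowest library.

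Serpinb6b, which lies in the same block of chromosome 13, was at 1.09, 0.205, 2.65 and 4.03 FPKM. Both JNK_KO lines were above both JNK_WT lines, with a log2 difference of 1.43 (SE 0.42) and an adjusted p of 0.512 in limma. Serpinb1a, an inhibitor of neutrophil elastase and cathepsin G, was at 0.0420, 0.0567, 0.934 and 7.44 FPKM. It was thus higher in both JNK_KO lines but uneven between them, and it was not tested. Of the enzymes these serpins trap in leukocytes, Elane was listed at 0 in all libraries and Ctsg reached 0.0215 FPKM.

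Serpinb5, or maspin, a member without protease inhibition that marks myoepithelial and basal mammary cells, was at 7.95, 28.5, 6.25 and 42.5 FPKM. The high values were in JNK_WT replicate 2 and JNK_KO replicate 3, so the groups overlapped, and the log2 difference was 0.13 (SE 1.07). The same lines were high for the basal marker Krt14, which in them was most of the sum of the 6 basal markers (25.9, 733, 38.1 and 376 FPKM), and for Krt17 and Trp63. Krt5 was high in JNK_WT replicate 2 alone, at 0.0316, 61.9, 0.110 and 0.205 FPKM, Mylk reached 1.79 FPKM in the same line alone, and Acta2 was at 7.36, 3.19, 1.70 and 29.0 FPKM. The part of basal identity in the maspin values was not tested. Without JNK_KO replicate 3 the difference was -1.17.

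Serpinb8, an inhibitor of the proprotein convertase furin, was at 9.72, 8.15, 6.61 and 30.8 FPKM. Only JNK_KO replicate 3 stood out, and the log2 difference of 0.65 (SE 0.74) became -0.38 without it. Serpinb7, or megsin, was at 0.217, 0.0107, 0.910 and 0.636 FPKM, higher in both JNK_KO lines. Serpinb10, known from haematopoietic cells, was at 0.0670, 0.545, 0.192 and 0.144 FPKM.

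Serpinb9, the granzyme B inhibitor that protects cells from cytotoxic granules, was at 6.79, 2.23, 3.01 and 7.06 FPKM. The groups overlapped, and the log2 difference was 0.18 (SE 0.61). Its mouse-specific copies behaved differently and were highest in JNK_WT replicate 1. Serpinb9b was at 2.34, 0.0593, 0.166 and 0.157 FPKM and Serpinb9e at 0.559, 0.0211, 0.0937 and 0.143 FPKM. Serpinb9c, Serpinb9d, Serpinb9f and Serpinb9g reached 0.382, 0.130, 0.0786 and 0.155 FPKM in the same library, which held the highest value of all 6 lettered copies. Among all detected genes 26.4% were highest there. Since Serpinb9d to Serpinb9g share 36.7% to 61.1% of their 40-base stretches, they are not independent measurements, although Serpinb9b (1.58%) and Serpinb9c (0%) are nearly or fully unique.

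**Figure D3:**
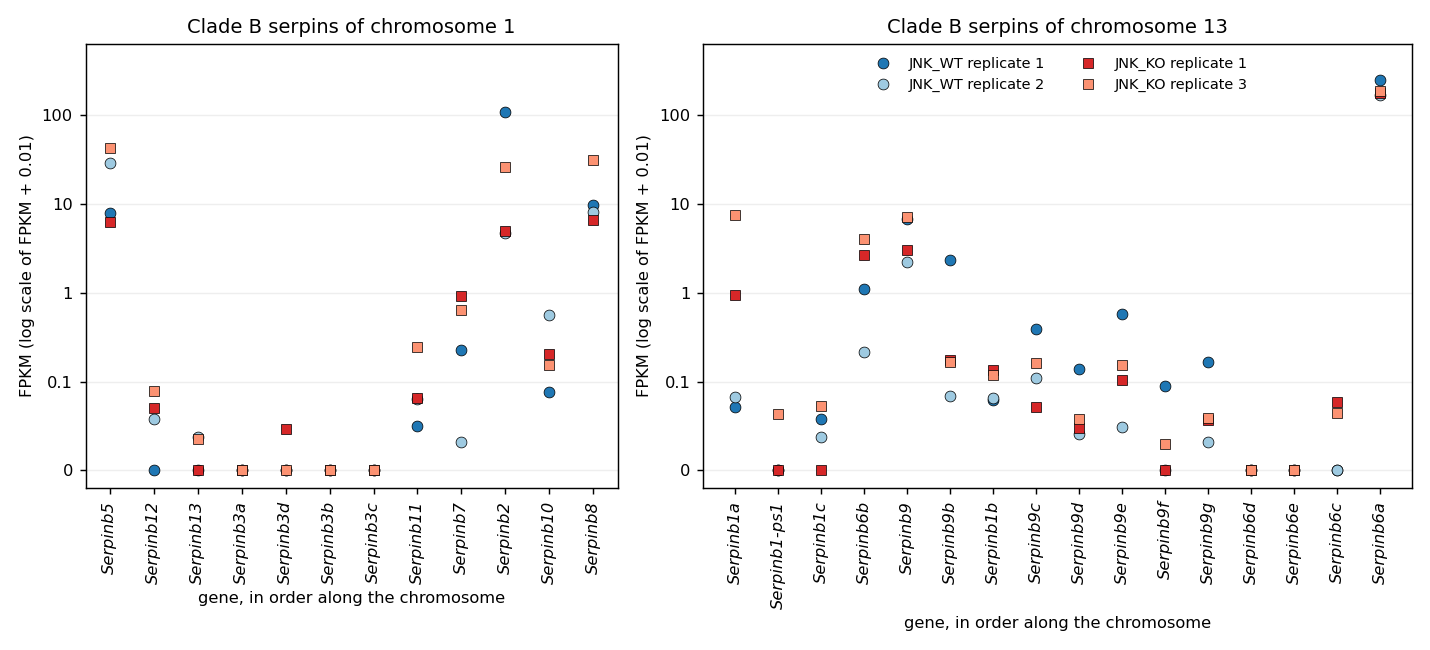
FPKM of the clade B genes of chromosome 1 (left) and chromosome 13 (right) in chromosomal order, on a log axis of FPKM + 0.01, with 1 point per library. On chromosome 1, Serpinb2 is highest in JNK_WT replicate 1 (109 FPKM), whereas Serpinb5 and Serpinb8 are highest in JNK_KO replicate 3 (42.5 and 30.8 FPKM). On chromosome 13, the copies Serpinb9b to Serpinb9g are highest in JNK_WT replicate 1, and Serpinb9 itself in JNK_KO replicate 3.

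Serpinb2 and Serpine2, which restrain plasminogen activation, differed widely between the JNK_WT lines. Serpinb2, an inhibitor of urokinase, was at 109, 4.64, 4.90 and 25.7 FPKM. JNK_WT replicate 1 was on top, JNK_WT replicate 2 lowest, and the log2 difference was -0.99 (SE 1.62). Serpine2, or protease nexin 1, which traps thrombin and urokinase at the cell surface, was at 0.911, 140.2, 27.3 and 21.2 FPKM. The JNK_WT lines differed by 6.21 on the log2 scale, and the difference between genotypes was 0.61 (SE 2.09).

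Leaving out 1 library turned the direction of both. Without JNK_WT replicate 1 the log2 difference was 1.15 for Serpinb2 and -2.49 for Serpine2. An absolute difference over 3 between the JNK_WT lines was found in 2.45% of tested genes, and Serpinb2 (4.28) and Serpine2 were among them. JNK_WT replicate 1 was high in Serpinb2 and nearly without Serpine2, and JNK_WT replicate 2 showed the opposite.

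Of the 11 other genes of plasminogen activation, 8 were tested, with a median log2 difference of -0.07. By over 0.75, 2 were lower and 0 higher in JNK_KO, beside 6.43% and 9.25% of all tested genes. The protease that Serpinb2 inhibits, urokinase (Plau), was at 761, 52.8, 42.8 and 41.3 FPKM, with a log2 difference of -2.23 (SE 1.29). JNK_WT replicate 1 was thus highest for the enzyme as for Serpinb2. The urokinase receptor Plaur was at 84.5, 81.7, 52.0 and 24.8 FPKM, lower in both JNK_KO lines, with a log2 difference of -1.19 (SE 0.41) and an adjusted p of 0.604 in limma. Lrp1, which clears the inhibitor complexes, had a difference of 0.64 (SE 0.55).

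Serpini1, or neuroserpin, an inhibitor of tissue plasminogen activator, was at 0.940, 0.396, 1.49 and 0.154 FPKM, with overlapping groups, and was not tested. The plasmin inhibitor Serpinf2 and the thrombin inhibitors Serpinc1 and Serpind1 stayed under 0.1 FPKM. Serpinc1 (antithrombin) was the only one of the 55 detected serpins with both JNK_KO lines below both JNK_WT lines, at 0.0272, 0.0381, 0.00967 and 0.0138 FPKM. Serpine3 was between 0.0804 and 0.176 FPKM.

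**Figure D4:**
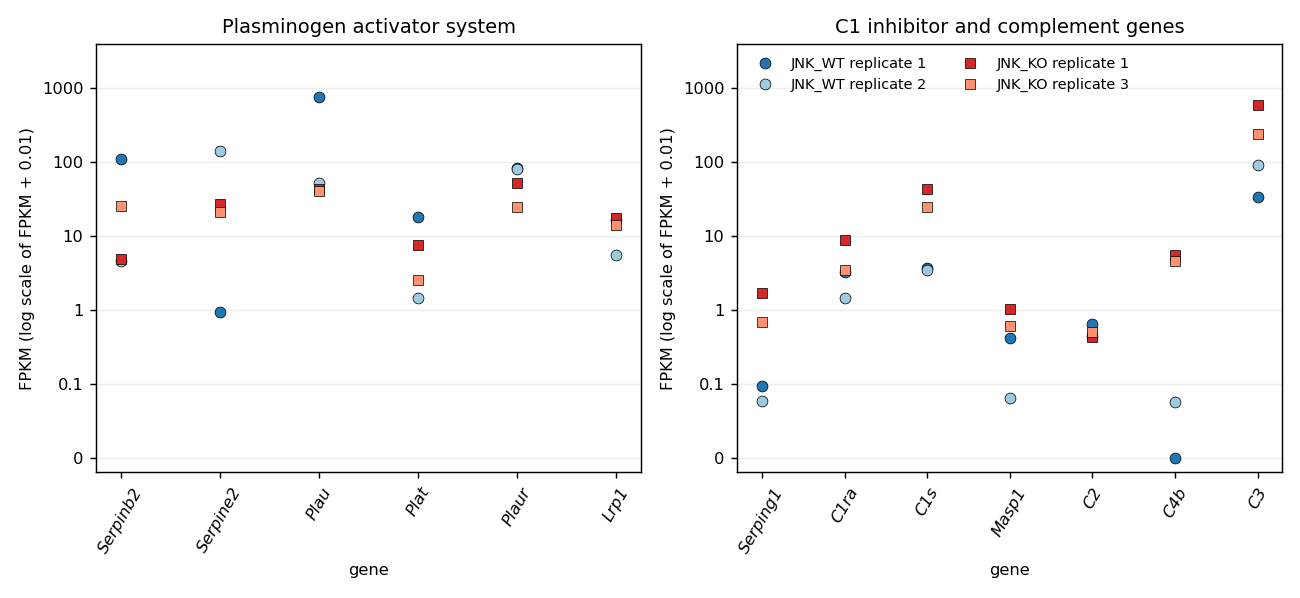
FPKM of serpins beside the proteases and partners they act on, on a log axis of FPKM + 0.01, with 1 point per library: the plasminogen activator system (left) and Serping1 with complement genes (right). On the left the JNK_WT lines are far apart for Serpinb2, Serpine2 and Plau, and on the right Serping1, C1s, C4b and C3 are each higher in both JNK_KO lines.

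Serping1, the C1 inhibitor of complement and contact activation, was at 0.0818, 0.0491, 1.69 and 0.676 FPKM. Both JNK_KO lines were above both JNK_WT lines, at about 138 and 74.5 reads against 6.8 and 4.9. It did not meet the filter and was not tested. The complement genes that were tested, 4 of the 8 in the table, were C1ra, C1s, C4b and C3. Each was higher in both JNK_KO lines and by over 0.75, beside 18.3% and 9.25% of all tested genes, and the median was 2.64. For C1ra, at 3.27, 1.425, 8.85 and 3.44 FPKM, JNK_KO replicate 3 was only little above JNK_WT replicate 1 (1.04, SE 0.55). C4b met the filter only through the JNK_KO lines, and untested C2 was at 0.643, 0.438, 0.419 and 0.487 FPKM. C1s, the protease that Serping1 traps, was at 3.66, 3.48, 43.4 and 24.8 FPKM, a log2 difference of 2.89 (SE 0.37, adjusted p of 0.189 in limma). Its substrate C4b was at 0, 0.0472, 5.47 and 4.64 FPKM, a difference of 2.56 (SE 0.30, adjusted p of 0.160). C3 was at 34.2, 92.7, 592 and 238 FPKM, a difference of 2.71 (SE 0.68, adjusted p of 0.440).

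Serpinh1, the endoplasmic reticulum chaperone that binds folded procollagen, was at 128, 53.1, 164 and 136 FPKM. Both JNK_KO lines were above both JNK_WT lines, by little over JNK_WT replicate 1. The log2 difference was 0.85 (SE 0.48), with a 95% interval from -0.42 to 2.12 and an adjusted p of 0.843 in limma. Without JNK_WT replicate 2 it was 0.22. Of 17 genes for collagen chains and their folding, 15 were tested, 5 higher and 1 lower by over 0.75, beside 9.25% and 6.43% of all tested genes, with a median of 0.33. Col5a1 (1.81, SE 0.48) and the prolyl hydroxylation partner Crtap (1.06, SE 0.30) were higher in both JNK_KO lines. Fkbp10, a collagen prolyl isomerase, had a difference of 1.54 (SE 1.18) with overlapping groups.

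Some mesenchymal markers were higher in the same lines as Serpinh1, Serping1 and Serpina3g, which are named here for having both JNK_KO lines on top. Of the 8 in the list, 4 were tested. Dcn, Pdgfra and Pdgfrb had both JNK_KO lines above both JNK_WT lines, beside 18.3% of all tested genes. But these 3 met the filter only through the JNK_KO lines and none was called. Dcn was at 0.430, 0.389, 79.7 and 162 FPKM and Pdgfra at 0.325, 0.183, 24.7 and 7.82 FPKM. Vim overlapped, at 331, 47.2, 500.4 and 159 FPKM. The sum of the list was 333, 48.6, 608 and 334 FPKM, and Col1a1 stayed at 0.527 FPKM or less in all lines. The luminal markers Epcam (360, 630, 150.3 and 286 FPKM) and Krt8 (1045, 564, 278 and 526 FPKM) were lower in both JNK_KO lines. Of the 7 luminal markers, these 2 were below and 0 above, beside 16.7% and 18.3% of all tested genes. The part of these markers in the serpin values was not tested.

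Serpinf1, the antiangiogenic factor PEDF, was at 2.38, 4.38, 3.99 and 1.77 FPKM. The groups overlapped, and the log2 difference was -0.20 (SE 0.47). Across the 11 tested serpins, 3 were higher by over 0.75 (Serpina3g, Serpinb6b and Serpinh1) and 1 lower by over 0.75 (Serpinb2), beside 9.25% and 6.43% of tested genes. Those 3 were also the tested serpins in which both JNK_KO lines were on top, and in 0 were both below, beside 18.3% and 16.7% of tested genes. The median difference was 0.37.

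The tested serpins differed more between lines of 1 genotype than tested genes in general. Their median absolute log2 difference was 1.26 within JNK_WT and 0.85 within JNK_KO, against 0.43 and 0.33 over all tested genes. Between the genotype means it was 0.61, against 0.27 over all. No test was made of these medians.

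**Figure D5:**
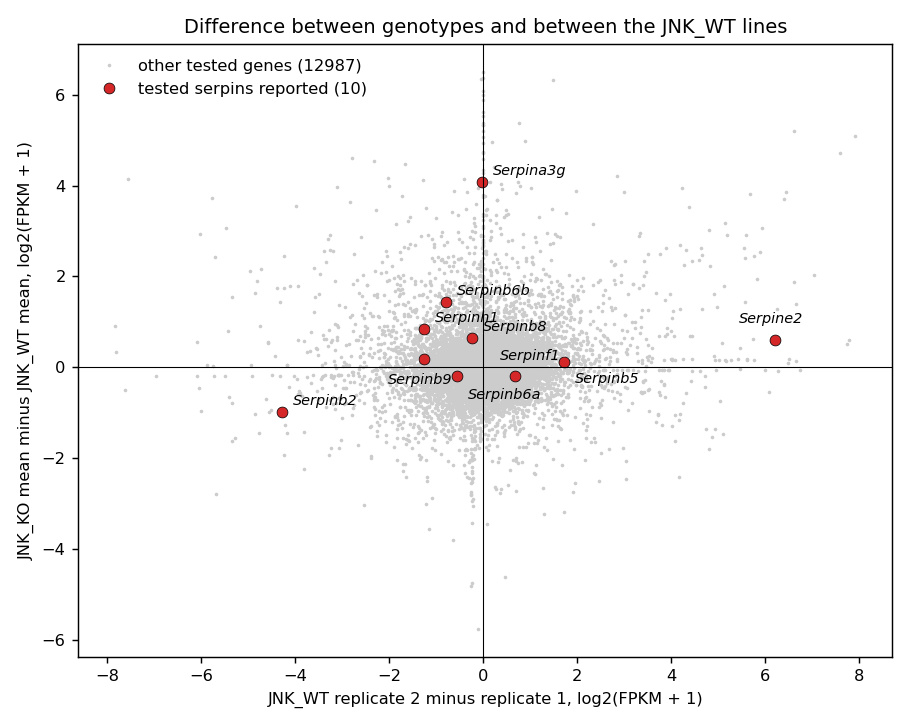
For each tested gene, the difference between the JNK_WT lines (replicate 2 minus replicate 1, x axis) against the difference between genotypes (JNK_KO mean minus JNK_WT mean, y axis), both in log2(FPKM + 1); red points are 10 tested serpins and gray points the other tested genes. Serpina3g lies at 4.08 on the y axis near 0 on the x axis, whereas Serpine2 and Serpinb2 lie far out on the x axis, at absolute values of 6.21 and 4.28.

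The remaining protease and inhibitor lists gave a background for the intracellular serpins. Of 14 granzymes and leukocyte serine proteases, the only one tested was Gzme, at 0.460, 37.9, 4.10 and 0.681 FPKM, and 13 stayed under 1 FPKM in all libraries, Gzmb at 0.0327 or less. Of 10 cysteine cathepsins, 9 were tested, 3 higher and 2 lower by over 0.75, again beside 9.25% and 6.43% of all tested genes. In 5 of them both JNK_KO lines were on top and in 2 both were below, beside 18.3% and 16.7%. Cathepsin L (Ctsl) was at 568, 642, 298 and 363 FPKM, lower in both JNK_KO lines (-0.87, SE 0.25). Cathepsin S (Ctss) was at 0.182, 0.0278, 1.20 and 2.51 FPKM, higher in both (1.33, SE 0.37) and past the filter only through the JNK_KO lines, and Ctsw had a difference of -1.64 (SE 0.79).

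Of 20 membrane-bound and kallikrein serine proteases 12 were tested, 2 higher and 4 lower by over 0.75. The shares of all tested genes, here and for the lists that follow, were 9.25% and 6.43%. The 3 with the widest differences were the hepsin gene Hpn (-1.82, SE 0.68), Prss22 (-1.72, SE 0.99) and Klk6 (1.57, SE 0.64). Of 17 inhibitors outside the serpin family 8 were tested, 2 higher and 0 lower by that margin. The elastase inhibitor Slpi was at 17.2, 449, 394 and 789 FPKM, low in JNK_WT replicate 1 alone (2.62, SE 1.59). Cystatin C (Cst3) had a difference of 0.82 (SE 0.32) and Wfdc2 of -0.59 (SE 0.32). Of 21 genes of thrombin generation 6 were tested, 2 higher and 1 lower by that margin, among them thrombomodulin (Thbd) at 2.29, 0.629, 21.4 and 21.9 FPKM (3.29, SE 0.44), F5 (1.22, SE 0.44), which met the filter only through the JNK_KO lines, and Procr (-1.09, SE 0.84).

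The 31 detected serpins that stayed under 0.5 FPKM comprised 15 of clade A, 12 of clade B and 1 each of clades C, D, E and F. The 12 listed at 0 in all libraries were Serpina3b, Serpina3e-ps, Serpina3j, Serpina3l-ps, Serpina4-ps1, Serpina5, Serpinb3a, Serpinb3b, Serpinb3c, Serpinb6d, Serpinb6e and Serpini2. Over all 55 detected serpins, both JNK_KO lines were above both JNK_WT lines in 23 and below in 1, beside 18.4% and 13.9% of all detected genes, with 14 of the 23 in clade A, 7 in clade B and the others being Serping1 and Serpinh1. The highest value was in JNK_WT replicate 1 for 10, in JNK_WT replicate 2 for 5, in JNK_KO replicate 1 for 19 and in JNK_KO replicate 3 for 21, beside 26.4%, 23.2%, 27.7% and 22.7% of all detected genes. Serpins at 0 in both JNK_WT lines were detected only through a JNK_KO line. For these, no JNK_WT line could be highest and both JNK_KO lines could not be below.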

How the data were processed

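RNA from 4 tumor cell lines (RNeasy, TruSeq, HiSeq, single-end) was quantified by the authors. Reads were trimmed and subsampled, aligned to mm10 with TopHat2 2.0.14 and Bowtie2, and summarised with Cufflinks 2.2.1, and the deposited values are FPKM per gene and library without pooling. The annotation and strand setting are not given in the sources used here. Of 38741 rows, 27 with dates in place of symbols and 1 without a value were removed.

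Genes with FPKM of at least 1 in at least 2 libraries were tested on log2(FPKM + 1) with limma 3.58.1 (intensity trend, two-sided, Benjamini-Hochberg over 12998 genes) in R 4.3.3. The study's own test needs alignments and was not run. With 2 libraries against 2 the smallest permutation p is 0.333. The test was tried on simulated data. Because 1 read has a fixed worth per effective length, reads were approximated, but only 68.1% to 72.3% of low values lay within 0.2 of a whole read, so no count model was fitted. Depth is known only in relative terms.

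Positions and coding sequences came from GENCODE M21 and promoters from RefSeq (GRCm38.p6), aligned with MAFFT 7.526. The members, gene lists and tests were chosen with earlier results of these data known. Every tested serpin was named except 1, which is counted but not reported here, untested ones where a library reached 0.5 FPKM (others named were chosen after their values were seen), and up to 3 tested genes of each protease or inhibitor list by absolute difference. The complement gene C1ra was given as well, beyond that limit. Alternatives changed the pseudocount, filter, scaling, trend, thresholds and libraries.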

Additional observations from a re-analysis of the deposited data

How the results depend on the processing

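No paired analysis was possible because number 1 is the only one found in both genotypes. Where a line was left out, the lone line of its genotype was assumed to vary like the other genotype. Genes called numbered 10 and 14 at pseudocounts of 0.1 and 0.5, 14 once the intensity trend was dropped and 25 at an adjusted p under 0.1, against 0 as reported and 0 without any 1 library; no serpin was among those called under any alternative. Without a filter on low values, 9 of 55 detected serpins passed a difference of 0.75, against 4 of the 11 tested. Groups that did not overlap numbered 24 of 55 (23 above and 1 below), against 3 of the 11 tested. Among all detected genes, 18.4% were above and 13.9% below. A difference of 1 was passed by 2 of the tested serpins. Leaving out 1 library gave 4 to 8 serpins past 0.75 (8 without JNK_WT replicate 1) and 5 to 9 without overlap, where fewer libraries have less room to overlap. The median difference was 0.060 without the filter, and without 1 library it ran from 0.22 to 0.81, the latter without JNK_WT replicate 1. Of 7 detected clade A serpins with under 1% of shared stretches, 5 had the JNK_KO lines on top, beside 18.4% of all detected genes. This alternative was chosen after seeing the data. The order is easier to meet with a library left out. Without JNK_WT replicate 1 or without replicate 2 it held in 14 of 22, beside 34.9% and 33.8% of all detected genes. It held in 20 of 20 without JNK_KO replicate 1 and in 16 of 17 without replicate 3, beside 33.9% and 37.1%. Clade A genes at 0 in both JNK_WT lines then counted as detected only through the remaining JNK_KO line. For them the order was fixed in advance.

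All 77 values of the single serpins reported under settings that kept the 4 libraries held their direction and stayed uncalled. Without 1 library, 11 values turned and 29 did not. The ranges were -3.13 to 1.15 for Serpinb2, -1.17 to 1.42 for Serpinb5, -0.46 to 0.094 for Serpinb6a, -0.38 to 1.68 for Serpinb8, -0.46 to 0.81 for Serpinb9, -2.49 to 3.71 for Serpine2 and -0.62 to 0.23 for Serpinf1. Serpina3g (3.49 to 4.68), Serpinb6b (1.03 to 1.83) and Serpinh1 (0.22 to 1.47) kept their direction. The adjusted p of Serpina3g ran from 0.140 to 0.437 over the alternatives that kept the 4 libraries, and reached 0.623 without JNK_KO replicate 1. With 2 lines per genotype, a difference is read against the spread between those lines, and for genes at a few reads counting error adds to it.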
